A study of Mus musculus with 6 samples.

Results

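The peak lists of SIN3A and SIN3B in E14 mouse embryonic stem cells were set against each other, site by site. After a crowded stretch of chromosome X had been left out, SIN3A had 1292 peaks and SIN3B 5294, which together made 6586 of the 14023 peaks deposited for the 6 proteins of the series. A peak was called shared where the other list had a midpoint on the same chromosome less than 400 bp away, and the same distance from a REST midpoint placed a peak at REST. ChIP-seq, the sequencing of DNA fragments that an antibody pulls down with its protein, was done in 1 library per protein, on cells at passages 15 to 18. SIN3A was precipitated from E14 cells with an antibody against the protein itself, and the same holds for REST. SIN3B was precipitated with a V5 antibody from a stable E14 line that expressed an added, tagged SIN3B at a low level. The label of that transgene writes the tag as VG, while the antibody label gives V5. Protein, antibody and cell line therefore differ together between the lists, and their parts in any difference cannot be told apart.

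SIN3A and SIN3B are related scaffold proteins that bind no DNA of their own accord. Transcription factors recruit them through paired amphipathic helix domains, and the scaffold carries the histone deacetylases HDAC1 and HDAC2, so that SIN3 complexes are best known for removing acetyl groups from histones at promoters. REST, a zinc finger repressor of neuronal genes in non-neuronal cells, recruits SIN3 through its amino-terminal repression domain and the CoREST proteins (RCOR1 to RCOR3) through its carboxy-terminal one. In mice both SIN3 genes are essential, SIN3A already around implantation and SIN3B later in gestation.

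Peaks were narrow and many scores were tied. Widths lay on a 20 bp grid with a median of 60 bp in both lists. The median score was 10.93 in SIN3A (lowest 8.01, highest 151.54) and 13.26 in SIN3B (9.12 and 253.67). Within rounding (0.006), 98.1% of SIN3A scores were whole multiples of 0.729 and 94.0% of SIN3B scores of 0.829, so a score moved in steps. The commonest SIN3A score, 10.2 or 14 steps, was held by 403 peaks (31.2%), and the commonest SIN3B score, 10.78 or 13 steps, by 935 (17.7%). What a step stands for is not stated in the sources used here. Scores were therefore ranked within a list only, as percentiles in which tied peaks share a mean rank and 100 is the highest. Read depth is unknown, and intervals are exact 95% Clopper-Pearson intervals for shares and Newcombe intervals for differences. They treat peaks as independent, cover counting error only and are not adjusted for the 79 differences computed. With 1 library for each protein there was no replicate check and no test between libraries.

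By the distance of midpoints, more than 50% of SIN3A peaks had a SIN3B peak beside them, whereas few SIN3B peaks had a SIN3A peak. In the SIN3A list 54.5% of peaks were shared (704 of 1292, 51.7 to 57.2%), and in the longer SIN3B list 13.7% (724 of 5294, 12.8 to 14.6%). Nearly all shared peaks formed simple pairs, since 675 SIN3A peaks had 1 SIN3B partner, 29 had 2 and none had more. Chaining neighbouring midpoints of both lists gave 5780 sites, of which 696 (12%) held both proteins, 580 (10%) SIN3A only and 4504 (77.9%) SIN3B only. When only as many of the best-scoring SIN3B peaks were kept as there were SIN3A peaks, 28.8% of SIN3A peaks and 29.0% of SIN3B peaks were shared. When deposited intervals had to overlap, the shares were 36.2% (33.6 to 38.9%) of SIN3A and 8.82% (8.07 to 9.62%) of SIN3B peaks, so that most SIN3A peaks then had no partner. The shares depend on both lists as called and are no measure of occupancy.

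Shared peaks lay close together. Among 698 pairs in which each peak was the nearest to the other, the midpoints were a median of 50 bp apart (quartiles 20 and 100 bp), and 525 pairs (75.2%, 71.8 to 78.4%) lay within 100 bp. At REST the median offset was 20 bp, and 93.2% of 220 pairs lay within 100 bp (89.0 to 96.1%). Away from REST it was 65 bp, and 66.9% of 478 pairs lay within 100 bp (62.5 to 71.2%). Start and end were identical in both lists for 38 pairs at REST (17.3%) and 16 away from it (3.35%). The limit fell where distances were thinning out, not in a gap. Between 200 bp and the limit lay 53 SIN3A peaks, and 49 in the wider range from the limit to 1000 bp. The much wider range from 1000 to 5000 bp held 54. Just inside it, the SIN3A peak chr2:38887111-38887251 (score 11.66) lay 390 bp from a SIN3B peak with score 18.24. Just outside, chr19:44461651-44461711 (SIN3A score 10.93) lay 400 bp from a SIN3B peak with score 11.61.

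**Figure D1:**
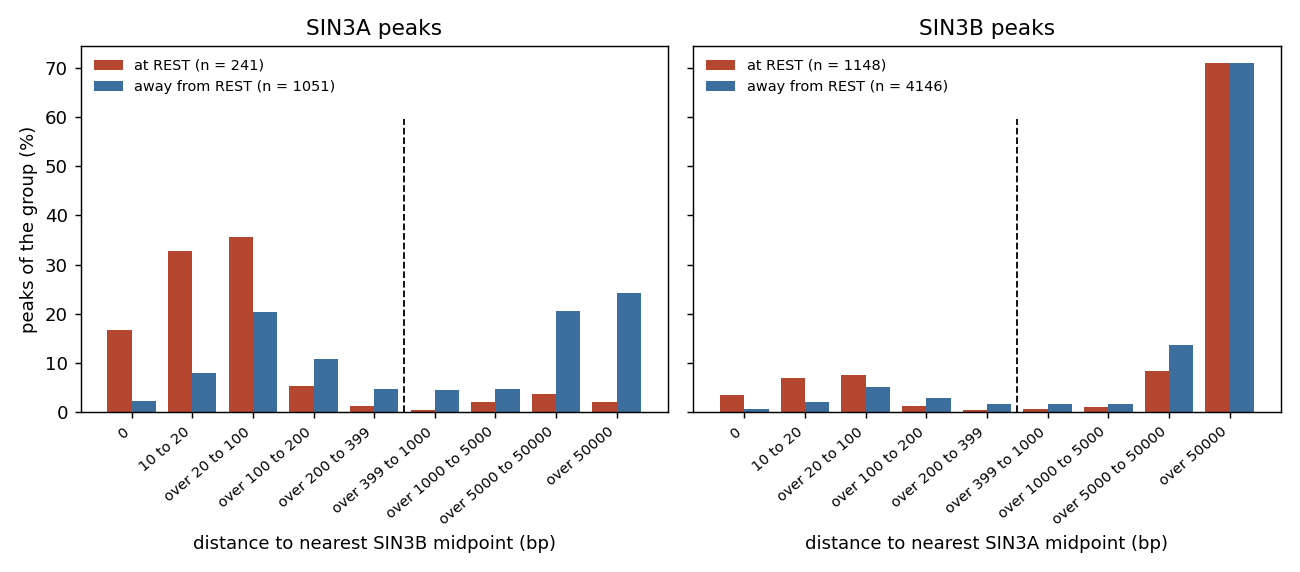
Share of SIN3A peaks (left) and SIN3B peaks (right) by distance in bp from the peak's midpoint to the nearest midpoint of the other list, at REST (red) and away from REST (blue), with the limit for shared peaks as a dashed line. SIN3A peaks at REST gather within 100 bp of SIN3B, while 70.9% of SIN3B peaks, at REST and away from it, lie over 50000 bp from SIN3A.

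With the full SIN3B list, nearly every SIN3A peak at REST had a SIN3B midpoint within the limit. The shared part of the SIN3A list was 91.7% at REST (221 of 241, 87.5 to 94.9%) against 46.0% away from REST (483 of 1051, 42.9 to 49.0%), a difference of 45.7 percentage points (40.6 to 49.9). With SIN3B limited to the length of the SIN3A list, 28.8% of all SIN3A peaks were shared and the difference was 48.8 points. The share at REST was then lower than with the full list, so the nearly complete sharing there belongs to the full SIN3B list. Seen from SIN3B, in the full lists, 19.3% of peaks at REST had SIN3A (222 of 1148) against 12.1% away from REST (502 of 4146), a difference of 7.23 points (4.82 to 9.80). REST sites thus held 31.4% of shared SIN3A peaks (221 of 704) and 3.40% of SIN3A-only peaks (20 of 588), a difference of 28.0 points (24.2 to 31.7). The SIN3A-only share was 8.26% with SIN3B limited to the length of the SIN3A list, 7.72% with the better-scoring 50% of both lists and 7.48% with REST allowed up to 5000 bp away. SIN3B-only peaks lay at REST in 20.3% of cases (926 of 4570), which left SIN3A-only peaks 16.9 points below them (interval of SIN3A-only minus SIN3B-only, -18.5 to -14.7).

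In every band of SIN3A score sharing was more frequent at REST, whereas in the SIN3B list it was clearly more frequent there only among high scores. SIN3A peaks with the commonest score of 10.2 were shared in 89.3% of cases at REST (25 of 28, 71.8 to 97.7%) and in 37.6% away from it (141 of 375, 32.7 to 42.7%). In the highest SIN3A band, from 16.76 upward, the shares were 98.5% (66 of 67, 92.0 to 100%) and 67.7% (21 of 31, 48.6 to 83.3%). At REST the SIN3A bands between them spanned 83.3 to 98.5%, with intervals that overlapped. In the lowest SIN3B band, up to 10.78, 6.52% were shared at REST (9 of 138, 3.03 to 12%) and 6.06% away (59 of 974, 4.64 to 7.74%). In the next bands the share was the lower at REST, with overlapping intervals: 2.25% (2 of 89, 0.273 to 7.88%) against 6.73% (44 of 654, 4.93 to 8.93%) from 11.05 to 11.61, and 3.19% (3 of 94, 0.663 to 9.04%) against 8.48% (39 of 460, 6.10 to 11.4%) from 11.81 to 12.43. Between 16.99 and 24.87 the shares were 17.3% (51 of 294) and 16.9% (92 of 545). From 25.28 to 49.74 they parted, at 47.2% (85 of 180, 39.8 to 54.8%) and 26.9% (90 of 334, 22.3 to 32.0%), and from 50.15 upward they were 90% (36 of 40, 76.3 to 97.2%) and 57.8% (52 of 90, 46.9 to 68.1%). Compared at equal score, the odds of being shared at REST against away were 8.41 times higher for SIN3A (5.11 to 13.8, against 13 without matching). For SIN3B the odds ratio was 1.74 (1.46 to 2.07) without matching. Matched at equal score, over 5081 peaks, it was 1.17 with an interval that includes 1 (0.955 to 1.44), and matched by score quintile, over all 5294 peaks, 1.25 with an interval that excludes it (1.03 to 1.5). Both matched SIN3B ratios average over scores with a lower share at REST and scores with a higher one.

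**Figure D2:**
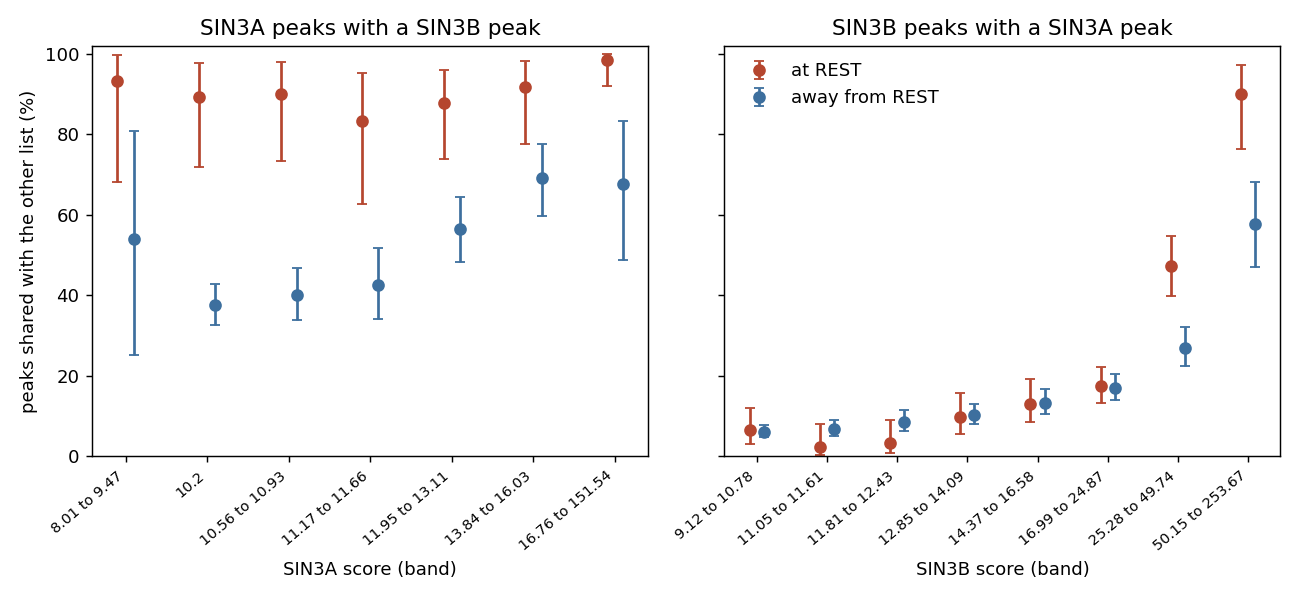
Share of SIN3A peaks with a SIN3B peak (left) and of SIN3B peaks with a SIN3A peak (right) in %, by band of the list's own score, at REST (red) and away from REST (blue), with exact 95% intervals as bars. The SIN3A shares at REST stay between 83.3 and 98.5% in all 7 bands, while SIN3B shares are clearly higher at REST only from a score of 25.28 upward.

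The REST score, which played no part in the definition of sharing, was higher under shared peaks. REST scores run from 8 to 1121.33, and the highest of 5 equal parts (quintiles) of the REST list begins at 48.01. All 170 SIN3A peaks at REST peaks of that quintile had SIN3B (100%, 97.9 to 100%). SIN3B was common there with or without SIN3A. From the highest quintile to the lowest, 575, 364, 126, 58 and 25 SIN3B peaks lay at REST peaks. A high shared part of SIN3A is therefore favoured at high REST scores, and its excess over that background was not tested. In the next quintile down 87.2% were shared (34 of 39, 72.6 to 95.7%), and in the middle one 58.3% (7 of 12, 27.7 to 84.8%). SIN3B peaks had SIN3A in 29.7% of cases in the highest quintile (171 of 575, 26.0 to 33.7%) and in 9.34% in the next (34 of 364, 6.56 to 12.8%). Toward the lowest quintile there was no steady decline, with 5.56% (7 of 126, 2.26 to 11.1%), 8.62% (5 of 58, 2.86 to 19%) and finally 20% (5 of 25, 6.83 to 40.7%). The REST peaks under shared SIN3A peaks had a median REST score of 82.97 (quartiles 52.75 and 133.94), those under SIN3B-only peaks 43.36 (30 and 62.82), and those under the 20 SIN3A-only peaks 16.3 (12.3 and 28.7). Counted from the REST list, 237 of 3080 peaks (7.69%) had both SIN3 proteins, 955 (31.0%) SIN3B only, 21 (0.682%) SIN3A only and 1867 (60.6%) neither. The REST peaks with neither had a median REST score of 14.22, close to the 15.41 of those with SIN3A only.

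**Figure D3:**
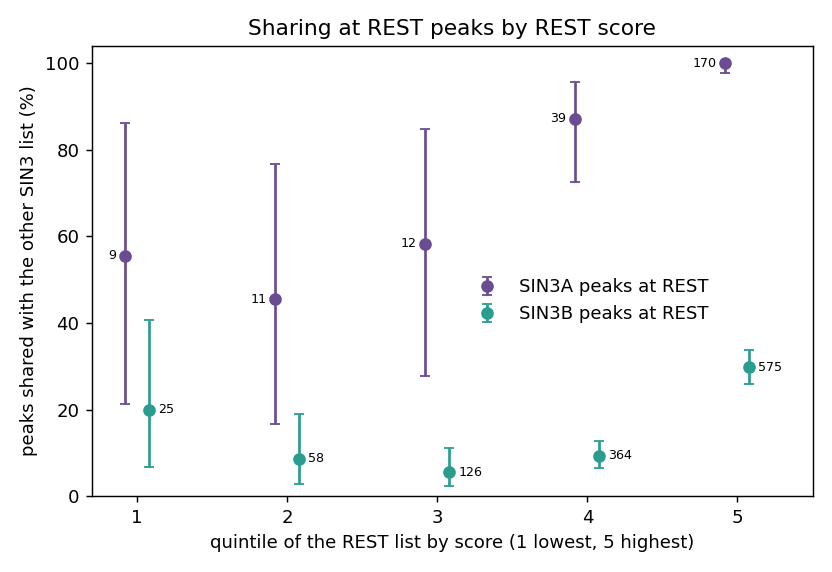
Share in % of SIN3A peaks at REST that have SIN3B (purple) and of SIN3B peaks at REST that have SIN3A (green), by quintile of the REST list, with exact 95% intervals as bars and the number of peaks beside each point. All 170 SIN3A peaks at the highest quintile of REST peaks have SIN3B, against 5 of 9 in the lowest quintile. SIN3B peaks at REST, with or without SIN3A, number 575 in the highest quintile and 25 in the lowest.

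The strongest shared sites were REST sites carrying every protein of the series. At chr7:6014211-6014251 the SIN3A score was 151.54 and the SIN3B score 253.67, the highest of each list, and the REST score of 1121.33 was also the highest of its list. The site chr19:4989171-4989211 ranked 2 in both lists (SIN3A 92.53, SIN3B 138.44, REST 696.98), and chr8:14072691-14072731 ranked 3 in both (78.68, 134.29 and 838.04). At chr15:84657351-84657391 SIN3A ranked 4 (75.04) and SIN3B 17 (94.5), with a REST score of 584.97. SIN3A and SIN3B had the same start and end at these 4 sites, and RCOR1, RCOR2 and RCOR3 each had a peak there. Genes at these positions are not named, because no annotation of build mm8 was used here.

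Shared sites away from REST reached high ranks too, though not the highest in SIN3A. The leading one by the lower of its percentiles, chr3:129823491-129823531, had a SIN3A score of 28.41 (rank 21) and a SIN3B score of 94.5 (rank 17), 60 bp apart. The SIN3A peak chr2:29711551-29711591 scored 23.31 (rank 34) beside a SIN3B peak of 66.32 (rank 59). At chr7:127213091-127213311 a SIN3A peak of 22.59 (rank 38), 220 bp wide, lay over a 40 bp SIN3B peak of 60.52 (rank 81). At chr8:87950191-87950591 a SIN3A peak of the same score, 400 bp wide, met the SIN3B peak of rank 6 (117.71) at an offset of 220 bp. None of these 4 had a peak of any RCOR list, and the nearest REST midpoint was at least 32980 bp away.

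SIN3A-only peaks scored lower than shared ones, though many lay above the list median. Their median score was 10.93 (quartiles 10.2 and 11.66) against 11.66 (10.2 and 13.84) for shared SIN3A peaks, and 33.8% scored above the list median against 56.1%, a difference of 22.3 points (16.9 to 27.4). At REST 13 of the 20 SIN3A-only peaks scored above it (65%) and 155 of the 221 shared peaks (70.1%), a difference of 5.14 points whose interval includes 0 (-12.9 to 27.6). Away from REST the highest was chr8:74539991-74540251, with a score of 49.54 at rank 9 of the list and no SIN3B midpoint within 18090 bp. It was followed by chr14:6794711-6794751 (27.69), chr17:33526511-33526571 (26.23) and chr11:102064891-102064931 (23.31). At REST the highest was chr10:69993811-69993851 (16.76, rank 85), which lay at a REST peak of 24.89 and also had RCOR3. The next 3, chr4:115326131-115326431 (14.57), chr4:116619251-116619371 (13.84) and chr6:116072891-116073251 (13.84), lay at REST peaks of 11.85 to 17.19 and had no RCOR peak. All 20 SIN3A-only peaks at REST sat on REST peaks scoring at most 46.23, below the start of the highest REST quintile. From these 20 the nearest SIN3B midpoint was 820 bp away at the closest and 17410 bp at the median.

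SIN3B-only peaks included many of high rank. The strongest away from REST were chr1:166144171-166144231 (108.6, rank 11), chr13:101204371-101204411 (107.77, rank 12), chr8:13158971-13159171 (106.11, rank 14) and chr2:164726111-164726151 (91.19, rank 19). They had no RCOR peak, and the nearest SIN3A midpoint was at least 106590 bp away. The strongest at REST were chr13:53955771-53955811 (66.32) and chr16:95202731-95202771 (65.49), at REST peaks of 68.75 and 212.18, followed by chr2:33912771-33912811 and chr4:44725571-44725611 (50.57 each), at REST peaks of 234.7 and 101.35. All 4 coincided with RCOR3, and the chr2 site also with RCOR1. For SIN3B, 72.8% of shared peaks scored above the list median against 42.5% of SIN3B-only peaks, a difference of 30.3 points (26.6 to 33.7).

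The 50 best-ranked SIN3A peaks were mostly REST sites, and the 50 best-ranked SIN3B peaks were not. This contrast did not hold further down the lists. Among the 50 best-ranked SIN3A peaks 76% lay at REST (38 of 50, 61.8 to 86.9%), all 38 of them shared, against 18.7% in the whole list. For SIN3B 32% of the best 50 lay at REST (16 of 50, 19.5 to 46.7%), again all shared, against 21.7% in the whole list. The remaining 34 SIN3B peaks of the best 50 lay away from REST, and 23 of these had SIN3A. With ties kept, 42.2% of the best 244 SIN3A peaks lay at REST (103, 35.9 to 48.7%). Of the best 200 SIN3B peaks 32% did (64, 25.6 to 38.9%). Further down the order was the other way, with overlapping intervals. The shares were 28.2% of the best 593 SIN3A peaks (167, 24.6 to 32.0%) and 33.3% of the best 525 SIN3B peaks (175, 29.3 to 37.5%). Sharing fell off along the SIN3B list from 31.3% in the highest quintile (346 of 1104, 28.6 to 34.2%) to 6.12% in the lowest (68 of 1112, 4.78 to 7.69%). Along the SIN3A list it went from 80.3% (196 of 244, 74.8 to 85.1%) to 43.4% (187 of 431, 38.6 to 48.2%).

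Where both proteins had a peak, the correlation of their ranks was higher at REST than elsewhere. Over the 220 pairs at REST Spearman's rho between the percentiles was 0.550 and Pearson's r 0.389. Over the 478 pairs away from REST rho was 0.203 and r 0.171. These values are descriptions across sites that share the genome and have many tied scores, and SIN3A had few score levels away from REST. Of the 98 pairs at REST in the highest quintile of SIN3A, 84 were also in the highest quintile of SIN3B (85.7%), against 57 of 96 away from REST (59.4%). Among all pairs, whatever their SIN3A score, 153 of 220 at REST and 186 of 478 away were in that SIN3B quintile, so pairs at REST stood high in SIN3B to begin with. From the SIN3B side these pairs were 54.9% of 153 at REST and 30.6% of 186 away. SIN3B stood at the higher percentile in 472 of 698 pairs (67.6%), and 66 pairs joined the lowest quintile of SIN3A to the highest of SIN3B while 5 did the reverse. Nothing about the proteins can be read from this imbalance. Pairs take up a far smaller share of the longer SIN3B list and lie mostly in its upper part, and because of ties the lowest quintile holds 431 of 1292 SIN3A peaks but 1112 of 5294 SIN3B peaks. The widest gap was at chr17:25541291-25541351, a REST site with all RCOR proteins, where SIN3A scored 8.38 (rank 1276) and SIN3B 53.05 (rank 114). It was followed by chr8:86956931-86956971 (SIN3A 8.74, SIN3B 48.08) and chr2:28522111-28522151 (8.5 and 36.2). In the other direction the leading site was chr9:108206111-108206311 (SIN3A 15.3 at rank 119, SIN3B 10.78), followed by chr8:108385991-108386211 (13.11 and 9.62) and chr11:72954451-72954631 (14.57 and 10.78), all away from REST.

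**Figure D4:**
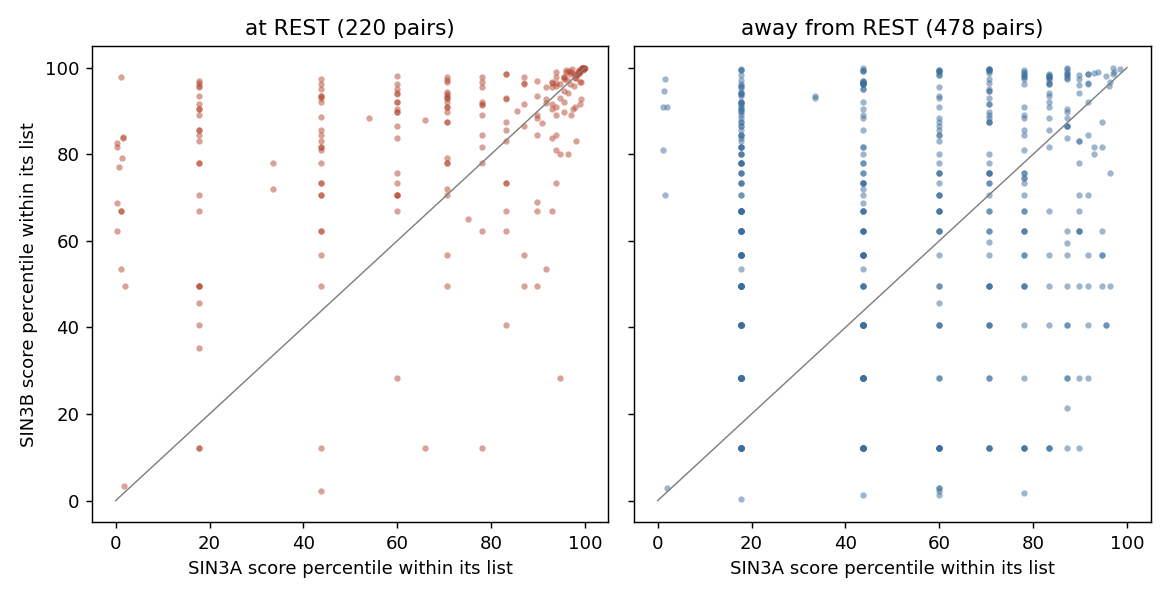
SIN3B against SIN3A score percentile, each within its own list, for mutually nearest pairs at REST (left, 220 pairs) and away from REST (right, 478 pairs), with 1 point per pair and a grey line of equal percentile. Pairs at REST crowd into the upper right corner, where 84 are in the highest quintile of both lists, and those away from REST form columns because many SIN3A scores are tied.

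The share of peaks at least 100 bp wide set shared SIN3A peaks apart in opposite directions at and away from REST. Away from REST 40.2% of shared SIN3A peaks were at least 100 bp wide (194 of 483) against 31.2% of SIN3A-only peaks (177 of 568), a difference of 9 points (3.20 to 14.8). At REST 24.9% of shared peaks were that wide (55 of 221) against 10 of the 20 SIN3A-only peaks, a difference of -25.1 points (-45.9 to -4.14) that rests on those 20. Over the whole SIN3A list the difference was 3.57 points (-1.62 to 8.68). In SIN3B the classes did not differ detectably in the share of peaks at least 100 bp wide, but shared peaks were more often of the narrowest width. At REST 17.6% of shared and 16.5% of SIN3B-only peaks were at least 100 bp wide (39 of 222 and 153 of 926), a difference of 1.04 points (-4.07 to 7.03). Away from REST the shares were 35.3% and 34.5%, a difference of 0.791 points (-3.55 to 5.33). The narrowest width of 40 bp was held by 46.8% of shared SIN3B peaks (339 of 724) and 39.2% of SIN3B-only peaks (1792 of 4570), a difference of 7.61 points (3.73 to 11.5). At REST these shares were 62.2% and 53.7%, a difference of 8.49 points (1.22 to 15.4), and away from it 40% and 35.5%, a difference of 4.5 points (0.0234 to 9.11). Within pairs, the SIN3A peak was the wider in 277 of 698, the SIN3B peak in 220, and widths were equal in 201.

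Neighbouring peaks of the same list were never closer than 260 bp in SIN3A or 230 bp in SIN3B. Another SIN3B peak lay within 5000 bp of 18.5% of shared SIN3B peaks (134 of 724) and of 13.2% of SIN3B-only peaks (603 of 4570), a difference of 5.31 points (2.47 to 8.45). The definition of sharing favours this SIN3B difference, because 2 SIN3B peaks beside 1 SIN3A peak are both shared and close to each other. That was so at 29 SIN3A peaks, and how much of the difference it makes up was not tested. In SIN3A the order of the classes was the other way, with 7.53% of shared (53 of 704) and 10.9% of SIN3A-only peaks (64 of 588), a difference of -3.36 points (-6.63 to -0.205). Away from REST the SIN3A difference was -2.81 points with an interval that includes 0 (-6.37 to 0.829). Runs of peaks each within 5000 bp of the next held at most 3 SIN3A and 5 SIN3B peaks. All 3 SIN3A runs of that size lay on chromosome 8, at chr8:72971091-72972191 with no shared peak, chr8:108178111-108180291 with 3 shared peaks and chr8:108143891-108149051 with 2. The longest SIN3B runs were chr9:62944071-62949311 (1 of 5 shared), chr2:115751771-115758831 (0 of 5) and chr10:42263191-42270751 (0 of 5).

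Chromosome 8 held a large part of the SIN3A peaks away from REST, shared or not. It carried 15.5% of SIN3A-only peaks away from REST (88 of 568, 12.6 to 18.7%), 17.8% of shared SIN3A peaks there (86 of 483, 14.5 to 21.5%) and 8.48% of SIN3B-only peaks there (309 of 3644, 7.60 to 9.43%), against 5.32% of all REST peaks (164 of 3080, 4.56 to 6.18%). Odds ratios against the REST list were 3.26 (2.47 to 4.30) for SIN3A-only, 3.85 (2.91 to 5.10) for shared SIN3A and 1.65 (1.35 to 2.0) for SIN3B-only peaks. Among peaks at REST they were 1.39 (0.815 to 2.36) for shared SIN3A and 1.04 (0.750 to 1.43) for SIN3B-only peaks, intervals that include 1, and 1 of the 20 SIN3A-only peaks at REST lay there. Peaks at REST lie by definition beside members of the REST list, so ratios near 1 are favoured beforehand. No contrast with the ratios away from REST can be drawn from them. SIN3A peaks away from REST were shared in 49.4% of cases on chromosome 8 (86 of 174) and in 45.3% elsewhere (397 of 877), a difference of 4.16 points whose interval includes 0 (-3.89 to 12.2). A SIN3B peak away from REST had SIN3A in 22.8% of cases on chromosome 8 (91 of 400) and in 11% elsewhere (411 of 3746), a difference of 11.8 points (7.80 to 16.2). This is no separate result. Away from REST 174 SIN3A peaks stood beside 400 SIN3B peaks on chromosome 8, and 877 beside 3746 elsewhere. With similar shared parts of SIN3A, the higher SIN3B share follows largely from these counts. Of the other lists, RCOR2 had 12.4% of its peaks on that chromosome (54 of 437) and RCOR3 2.47% (92 of 3729).

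**Figure D5:**
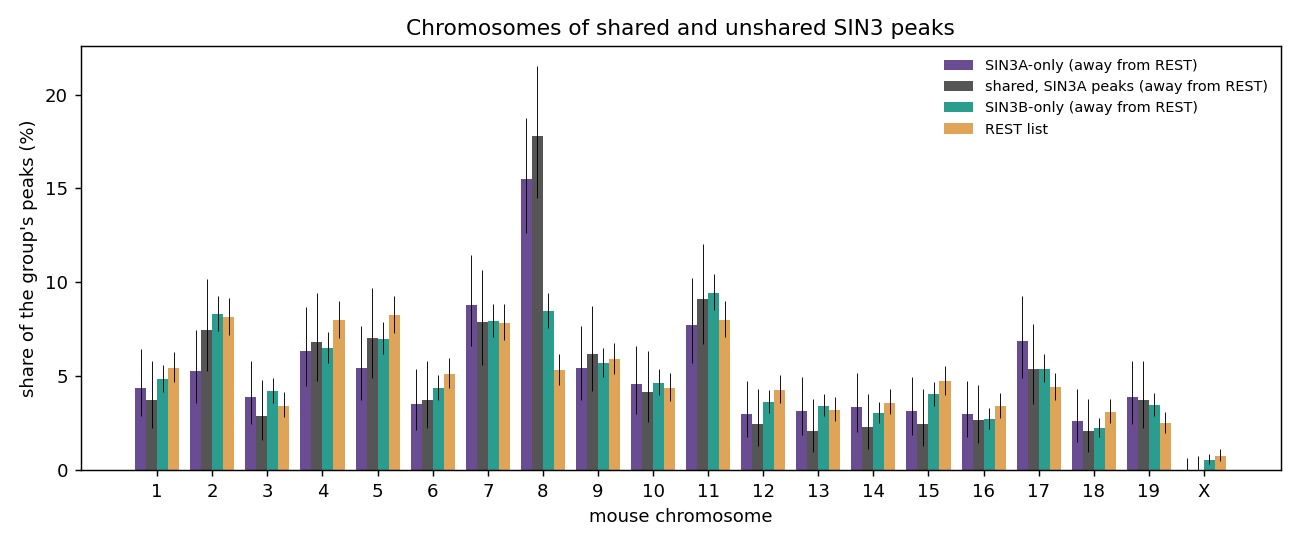
Share in % of SIN3A-only (purple), shared SIN3A (dark grey) and SIN3B-only peaks (green) away from REST, and of all REST peaks (orange), on each mouse chromosome, with exact 95% intervals as thin bars. Chromosome 8 stands out with 15.5 and 17.8% of SIN3A-only and shared peaks against 5.32% of REST peaks.

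Within chromosome 8 the peaks gathered in a few stretches of its distal part. The 3 bins of 5 Mb with the most shared peaks, 70 to 75, 85 to 90 and 105 to 110 Mb, held 112 of the 191 SIN3A peaks on the chromosome (58.6%, 51.3 to 65.7%) and 218 of the 466 SIN3B peaks (46.8%, 42.2 to 51.4%). They held 40 of 164 REST peaks (24.4%, 18.0 to 31.7%). Because the bins were picked for their shared peaks, high SIN3A and SIN3B shares in them are favoured beforehand, and the intervals ignore that choice. The bin from 70 to 75 Mb alone had 51 SIN3A peaks, of which 34 were SIN3A-only, beside 75 SIN3B and 16 REST peaks. The one from 85 to 90 Mb had 34 SIN3A and 92 SIN3B peaks. Below 60 Mb, a boundary chosen after its values were seen, lay 8 SIN3A peaks (4.19%) but 63 SIN3B (13.5%) and 49 REST peaks (29.9%). Without these 3 bins chromosome 8 held 6.69% of SIN3A peaks (79 of 1180, 5.34 to 8.27%), 4.89% of SIN3B peaks (248 of 5076, 4.31 to 5.52%) and 4.08% of REST peaks (124 of 3040, 3.40 to 4.84%). Those values follow the same choice, and no bins were removed from other chromosomes. The fullest bins outside chromosome 8 were 30 to 35 Mb of chromosome 17 for SIN3A-only peaks (10) and 115 to 120 Mb of chromosome 11 for SIN3B-only peaks (54). On chromosome X outside the stretch left out, SIN3B had 26 peaks and SIN3A none.

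The CoREST lists, which the definition of sharing did not use, differed between the classes at REST. Like SIN3B, the CoREST proteins were precipitated through the V5 tag from E14 lines with added, tagged protein. At REST an RCOR3 peak lay at 86.9% of shared SIN3A peaks (192 of 221, 81.7 to 91.0%) and at 40% of SIN3A-only peaks (8 of 20, 19.1 to 63.9%), a difference of 46.9 points (24.9 to 65.4). Among SIN3B peaks at REST it lay at 87.4% of shared (194 of 222) and 61.6% of SIN3B-only peaks (570 of 926), a difference of 25.8 points (19.9 to 30.7). RCOR1 met 17.1% of shared SIN3B peaks at REST (38 of 222, 12.4 to 22.7%) and 1.62% of SIN3B-only peaks (15 of 926, 0.909 to 2.66%), and RCOR2 met 18.9% (42 of 222, 14 to 24.7%) and 2.05% (19 of 926, 1.24 to 3.19%). REST scores also differed between these classes, and their part in the RCOR shares was not tested. Away from REST RCOR3 lay at 7.66% of shared SIN3A peaks (37 of 483), 5.28% of SIN3A-only (30 of 568) and 6.48% of SIN3B-only peaks (236 of 3644). The difference between shared and SIN3A-only peaks was 2.38 points with an interval that includes 0 (-0.599 to 5.51). No RCOR1 peak met either SIN3 protein away from REST, but the RCOR1 list had only 60 peaks outside the left-out stretch. At REST 53 SIN3B peaks met RCOR1, so few RCOR1 peaks remained to be met elsewhere. In all, 536 SIN3A peaks (41.5%, 38.8 to 44.2%) and 3395 SIN3B peaks (64.1%, 62.8 to 65.4%) had no peak of any of the other 5 lists within the same distance.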

How the data were processed

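For each library the deposited file gives a peak's chromosome, start, end and a score made by the authors, whose unit is not stated. The build, mm8, comes from the names of the lists. Per the labels' protocols, DNA from sonicated nuclei was amplified with Illumina primers, size-selected on a gel and sequenced on a Genome Analyzer. Which programs aligned reads and called peaks, with what control and cutoff, is not given in the sources used here. Positions are printed as deposited.

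Peaks with midpoints on chromosome X from 165300000 to 165400000 were left out of every list. Midpoints at most 399 bp apart counted as shared or as at REST. Since midpoints lie on a 10 bp grid, this is the same as less than 400 bp. Counts, exact and Newcombe intervals and Mantel-Haenszel odds ratios over score values were computed with Python 3.11.15, scipy 1.17.1 and statsmodels 0.14.6. Score bands and pairing each peak at most once were chosen after seeing the data. In simulated lists of these lengths, 100% of the pairs planted within the limit were found. This checks the matching code only, not how well the limit finds shared sites in these data. Regions named are the 4 highest of each class by percentile at and away from REST, the 3 largest percentile gaps each way, the pairs nearest the limit, the 3 longest runs and the 3 fullest bins of 5 Mb. The comparison, its definitions and the classes were chosen with earlier results of these data known.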

Additional observations from a re-analysis of the deposited data

Results flagged for a closer look

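The left-out stretch of chromosome X held a signal that the comparisons above do not use. It contained 22 SIN3A peaks (1.67% of the deposited list) and 24 SIN3B peaks (0.451%), of which 17 and 19 were shared. Their median scores were 14.9 for SIN3A and 16.2 for SIN3B, against 11.85 for the 24 REST peaks there, each on its own list's scale.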

How the results depend on the processing

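For 16 results under 10 alternatives, 116 of 146 values stayed within the 95% interval of the reported value and 30 did not, and every difference whose interval excluded 0 kept its sign and an interval without 0. Shares of SIN3A and SIN3B peaks that were shared went to 50.4% and 12.4% within 200 bp, 58.3% and 15.0% within 1000 bp, 36.2% and 8.82% with deposited intervals overlapping, and 28.8% and 29.0% with SIN3B limited to the length of SIN3A. The difference between REST and elsewhere in SIN3A was 54.0 points with deposited intervals and 37.4 with REST allowed up to 5000 bp away, and in SIN3B 11.2 with SIN3B limited. With the better 50% of both lists, REST shares were 45.7% (shared SIN3A), 44.9% (shared SIN3B), 7.72% (SIN3A-only) and 28.2% (SIN3B-only), and with SIN3B limited 44.4%, 43.7%, 8.26% and 31.4%. REST up to 5000 bp away gave 7.48% for SIN3A-only and 22.8% for SIN3B-only, and deposited intervals 34.7% for shared SIN3B and 17.1% for SIN3B-only. With SIN3B limited, the excess of shared SIN3A peaks above the median score was 29.1 points and SIN3B-only peaks on chromosome 8 were 5.13%. Width differences over whole lists, whose intervals included 0, moved to 12.4 (SIN3A) and 2.74 points (SIN3B) with deposited intervals, where a wider peak overlaps more easily by construction. They were -5.67 and -6.63 with the better 50%, and -7.10 for SIN3B when limited. Width by class therefore has no settled direction over a whole list. The cause of the other shifts was not tested. Read depth is unknown, so a missing peak is not a missing protein. No paired analysis was possible because each protein has 1 library.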

Other observations

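The lowest scores of both lists lay at REST more often than the commonest score did. Below its commonest score of 10.2, SIN3A had 28 peaks (8.01 to 9.47), and 15 of them lay at REST (53.6%, 33.9 to 72.5%), against 6.95% of the 403 peaks at 10.2 (28 peaks, 4.67 to 9.89%) and 23.0% of the 861 above it. In SIN3B the values were 33.3% at REST (59 of 177, 26.4 to 40.8%) below 10.78, 8.45% (79 of 935, 6.75 to 10.4%) at 10.78 and 24.2% (1010 of 4182) above it. In sharing the lists went different ways. Of the 28 low SIN3A peaks 21 were shared (75%, 55.1 to 89.3%), against 41.2% at the commonest score and 60% above it. Of the 177 low SIN3B peaks 10 were shared (5.65%, 2.74 to 10.1%), close to the 6.20% at the commonest score and below the 15.7% above it. This grouping was chosen after its values were seen, and how the authors' threshold let these scores pass was not examined.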
